A study of Mus musculus with 19 samples.

Results

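The 10 genes described here encode proteins that coat lipid droplets or cut and rebuild the fat inside them: the perilipins Plin2, Plin3, Plin4 and Plin5, the droplet protein Cideb, the triglyceride lipase Pnpla2 with its inhibitor G0s2 and its activator Abhd5, and the lipins Lpin1 and Lpin2. They were taken by gene symbol from the authors' deposited comparison tables and joined to the counts by gene identifier. All 10 were found among the 14319 genes with counts in every library, and all 10 passed the filter on low counts that left 12493 genes to be tested.

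Hepatocytes store fatty acids as triglyceride in droplets, which are covered by perilipins. Adipose triglyceride lipase (ATGL, the product of Pnpla2) removes the first fatty acid from triglyceride, is switched on by its coactivator Abhd5 and blocked by G0s2, while perilipins set the access of these enzymes to the droplet. Lipins make diacylglycerol from phosphatidic acid, a step on the way to new triglyceride, and lipin 1 also acts in the nucleus as a coactivator of fat-oxidation genes. During fasting, fatty acids released by adipose tissue reach the liver and are stored, burned or exported from it.

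RNA was sequenced from 19 mouse livers. All mice were adults with 1 Cre-dependent copy of channelrhodopsin-2 at ROSA26 (ROSA26 ChR2 fl/wt) and an optic fibre over the arcuate nucleus, and all received blue laser light without food for 2 h or 4 h before they were killed at the same hour of the light phase. The tg mice (AgRP-IRES-Cre tg/wt) also carried Cre under control of the gene of agouti-related peptide, which marks hunger-promoting neurons of that nucleus, and the wt mice (AgRP-IRES-Cre wt/wt) did not. After 2 h of light, livers came from 5 wt mice and from 4 tg mice, numbered 1, 2, 3 and 5, and after 4 h from 5 mice of each genotype. Because tg and wt differ in the driver and all received light, an effect of exciting these neurons and an effect of carrying the driver cannot be told apart. The 4 h mice also went without food for longer and received light from an earlier hour, so the duration of light, the duration without food and the starting hour cannot be told apart between durations.

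Total counts per library ran from 21474255 to 32721605. The share of counts from mitochondrially encoded genes was 7.75% in tg 2 h replicate 1 and 7.83% in wt 4 h replicate 1, against 10.0% to 12.9% in the other libraries. All 8 hepatocyte markers had counts, and their summed level lay between 68280 and 110037 CPM (counts scaled to a common library total, TMM-adjusted), with tg 4 h at 92029 to 110037 and wt 4 h at 72366 to 95508. Of 8 adipocyte markers, 4 had a row of counts, without Adipoq, Lep, Plin1 and Retn, and their summed level was 7.27 to 16.3 CPM, while none of 8 striated muscle markers had a row. Summed markers of stellate cells were 206.6 to 305 CPM in tg 4 h and 145 to 313 CPM in wt 4 h, and those of macrophages were 121 to 253 CPM and 137 to 228 CPM. Summed markers of cholangiocytes were 31.2 to 48.5 CPM in tg 4 h and 23.5 to 38.2 CPM in wt 4 h, and those of erythroid cells 243 to 485 CPM and 361 to 633.5 CPM. Of 54 markers tested over all lists, 2 passed at 2 h and 2 at 4 h, against 2.16% and 11.4% of all genes tested. The hepatocyte marker Tat, an enzyme of tyrosine breakdown, rose by 1.99 ± 0.30 and 2.35 ± 0.30 on the log2 scale (edgeR adjusted p = 0.00152 and 8.65e-05). Hnf4a, a hepatocyte transcription factor, rose by 0.54 ± 0.14 at 4 h (adjusted p = 0.0144), and the cholangiocyte marker Sox9 fell by 1.04 ± 0.25 at 2 h (adjusted p = 0.0310). The other cholangiocyte markers tested did not pass at 2 h, where medians were higher in tg for Krt19, Epcam and Spp1 and lower for Krt7. Summed cholangiocyte markers at 2 h had medians of 30.2 CPM in wt (28.8 to 37.8) and 38.5 CPM in tg (22.3 to 54.2). The part of these cell types and libraries in the results was not tested. In whole liver, fewer cells of a type and less RNA per cell cannot be told apart.

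Plin5, Plin4, the lipins and, by a smaller amount, Pnpla2 stood higher in tg livers after 4 h, and Plin5 alone passed at 2 h as well. The remaining members did not differ detectably in the fit reported here. After 2 h of light, 1 of 10 members passed the test at an adjusted p under 0.05, against 2.16% of all genes tested, or 1.14% counting rises only. After 4 h, 5 of 10 passed, all higher in tg, against 11.4% of all genes, or 5.75% counting rises only. These were Plin5, Plin4, Lpin1, Lpin2 and Pnpla2. The median log2 fold change of the 10 members was 0.25 at 2 h and 0.54 at 4 h, beside 0.01 and -0.01 for all genes. Averaged over both durations, 4 members passed, all higher in tg (Plin4, Plin5, Lpin1 and Lpin2), against 14.2% of all genes, or 6.98% counting rises only. Adjusted p-values are from edgeR's quasi-likelihood test over all 12493 genes with Benjamini-Hochberg adjustment. The members were chosen with earlier results of these data known, so these shares and medians are descriptions and no test of the list.

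**Figure D1:**
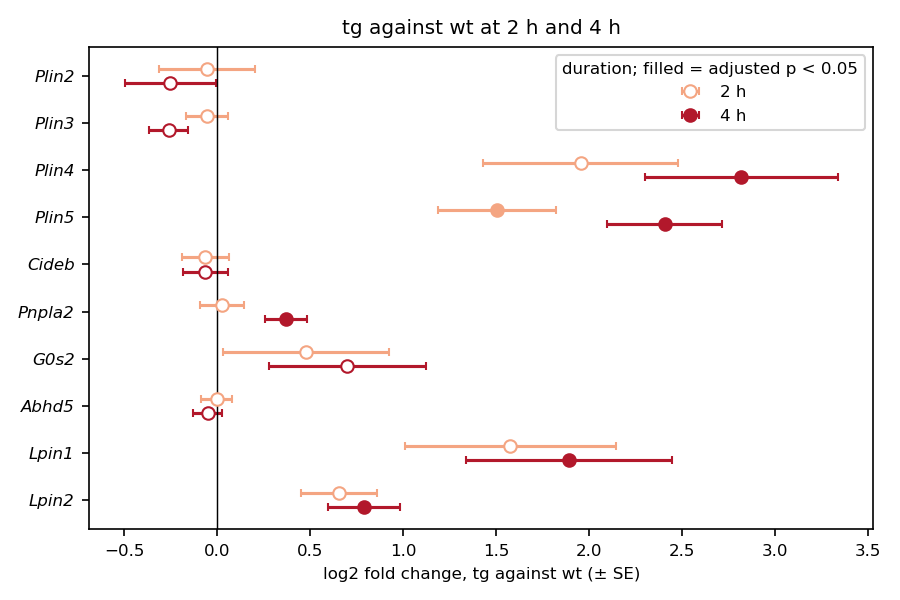
Log2 fold change of tg against wt for each of the 10 members (horizontal axis, bars ± SE) after 2 h and 4 h, with filled points for an adjusted p under 0.05. Plin5 passed at both durations with 1.50 and 2.41, and Plin4, Lpin1, Lpin2 and Pnpla2 passed at 4 h. Plin2, Plin3, Cideb, G0s2 and Abhd5 gave no call.

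Plin5 coats droplets of tissues that burn fat, ties them to mitochondria and restrains ATGL until lipolysis is stimulated. At 2 h its level in the 5 wt livers was 27.7, 41.8, 18.9, 49.8 and 25.7 CPM, and in the 4 tg livers 83.8, 78.8, 82.1 and 127 CPM. Every tg liver stood above every wt liver, and tg replicate 5 stood apart at the top of its group. The means were 32.8 ± 12.7 (SD, n = 5) and 92.9 ± 22.7 CPM (SD, n = 4), a 2.83-fold ratio and a log2 fold change of 1.50 ± 0.32 (SE; edgeR adjusted p = 0.0155). The call at 2 h was lost when replicate 5 of either genotype was left out (tg 2 h replicate 5 or wt 2 h replicate 5), where the adjusted p reached 0.0700 at most and the log2 fold change stayed at 1.32 or more.

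At 4 h Plin5 stood at 59.7, 33.1, 30.4, 33.4 and 72.2 CPM in wt and at 247, 278, 131, 251 and 307 CPM in tg. The groups again did not overlap, and the lowest tg liver, replicate 3, held 131 CPM where the highest wt liver, replicate 5, held 72.2 CPM. The log2 fold change was 2.41 ± 0.31 (adjusted p = 0.000122), the 50th smallest p of all genes, and it passed in all 12 other settings and in all 19 fits that left out 1 library, between 2.29 and 2.68. Within tg, the log2 difference of 4 h against 2 h was 1.39 ± 0.32 (adjusted p = 0.0514). It missed the threshold in the fit reported and passed it in the fits named in the closing section. In wt the same difference was 0.49 ± 0.30 (adjusted p = 0.863). The difference between the tg effects at 4 h and 2 h was 0.90 ± 0.43, with an unadjusted p of 0.0530 and an adjusted p of 0.865.

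**Figure D2:**
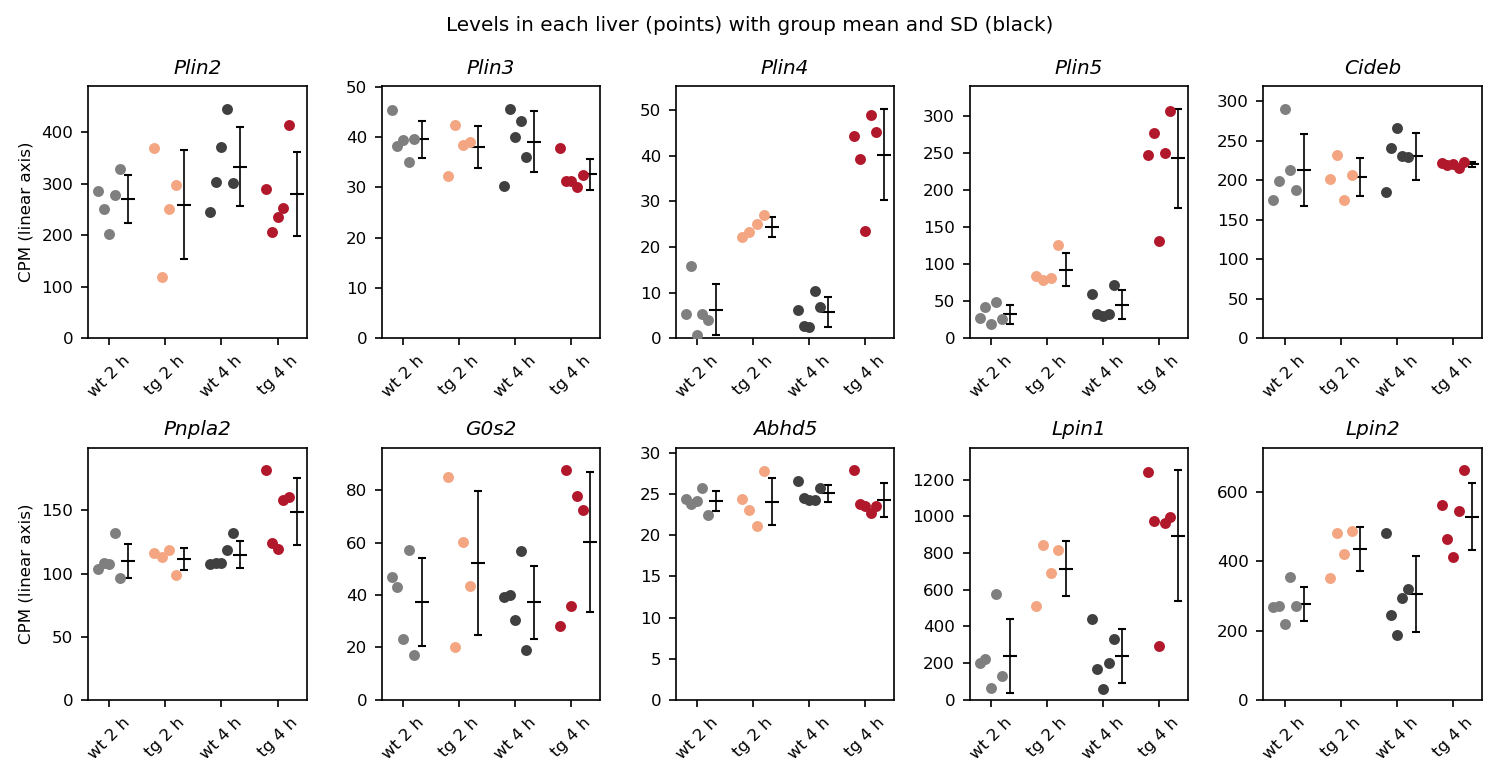
Level in CPM (vertical, linear axes from 0) of each member in each liver, with the mean and SD of each group in black. Plin4 and Plin5 separate tg from wt at both durations. For Lpin1 the lowest tg 4 h liver (291 CPM) falls among wt livers, of which the highest holds 439.7 CPM.

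Plin4, a perilipin with a long repetitive middle that is best known from adipocytes and muscle, had the lowest mean level per kb of longest transcript among the members in every group. Its level at 2 h was 5.33, 15.8, 0.825, 5.43 and 4.07 CPM in wt, from 27 to 431 reads, and 22.1, 23.2, 25.0 and 27.0 CPM in tg, from 538 to 610 reads. The tg livers lay close together and above all wt livers, whereas wt replicates 2 and 3 were far apart. The log2 fold change of 1.96 ± 0.53 at 2 h did not pass (adjusted p = 0.0684). Of 19 fits that left out 1 library, 1 passed, without wt 2 h replicate 2 (2.65, adjusted p = 0.00603). That liver held the highest wt value, and leaving it out by itself widens the difference.

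At 4 h Plin4 held 6.32, 2.73, 2.49, 10.3 and 6.88 CPM in wt and 44.3, 39.3, 23.5, 48.8 and 45.2 CPM in tg. No tg liver fell within the wt range, and replicate 3 was again the lowest of the tg livers. The ratio of means was 7.01, and the log2 fold change of 2.82 ± 0.52 (adjusted p = 0.00235) passed in the same 12 settings and 19 fits. Plin4 and Plin5 were the 2 members whose tg and wt values did not overlap at either duration, both with tg higher. Of all genes tested, 6.00% did not overlap at 2 h and 8.19% at 4 h, in either direction, and 2.91% and 4.27% did so with tg higher.

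These 2 genes are neighbours. On mouse build GRCm38, Plin4 (ENSMUSG00000002831) lies on the minus strand of chromosome 17 from 56100591 to 56109803 and Plin5 (ENSMUSG00000011305) on the same strand from 56111601 to 56117596, with a gap of 1.80 kb between them. Plin3 (ENSMUSG00000024197) lies on that strand too, from 56277476 to 56292873, and 160 kb separate it from Plin5. Of 19 tested genes within 200 kb of Plin5, 2 passed at 4 h, Plin4 and Chaf1a, against 11.4% of all genes tested. None passed at 2 h, against 2.16% of all genes. Chaf1a, a subunit of a histone chaperone, rose by 0.72 ± 0.19 on the log2 scale at 4 h (adjusted p = 0.0191). Lrg1, the nearest tested gene upstream of Plin5, had 0.65 ± 0.55 at 2 h and -0.15 ± 0.52 at 4 h (adjusted p = 0.776 and 0.890). An overlap of 17 exon bases with Hdgfl2 on the opposite strand touches Plin4, and Hdgfl2 held 21.4 ± 2.90 CPM in wt and 23.0 ± 2.34 CPM in tg at 4 h.

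**Figure D3:**
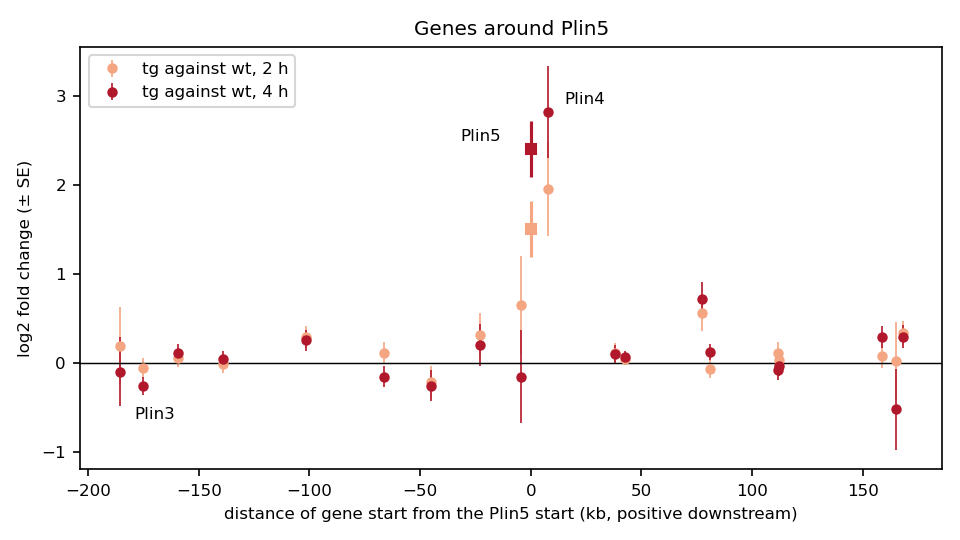
Log2 fold change of tg against wt (vertical axis, ± SE) for genes tested within 200 kb of Plin5, by the distance of their start from that of Plin5 in kb along its direction of transcription, with squares for Plin5. Plin5 (1.50 at 2 h and 2.41 at 4 h) and Plin4 (1.96 and 2.82) stand above their neighbours, and Plin3 lies at -0.26 at 4 h.

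The 250 bases upstream of a RefSeq start of each of the 2 genes, for Plin5 the outer of 2 starts (build GRCm38.p6, minus strand, written 5′ to 3′), are given because the genes sit side by side and both stood higher in tg livers. Capitals mark TATAAGG, and in Plin5 also AGGTCA, the repeat unit of the element bound by PPAR and RXR.
Plin4 chr17:56109783-56110032: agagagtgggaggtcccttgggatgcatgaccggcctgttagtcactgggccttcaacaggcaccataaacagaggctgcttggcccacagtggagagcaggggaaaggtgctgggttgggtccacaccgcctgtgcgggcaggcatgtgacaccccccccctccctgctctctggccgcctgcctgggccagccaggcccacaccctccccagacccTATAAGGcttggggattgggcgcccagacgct
Plin5 chr17:56117549-56117798: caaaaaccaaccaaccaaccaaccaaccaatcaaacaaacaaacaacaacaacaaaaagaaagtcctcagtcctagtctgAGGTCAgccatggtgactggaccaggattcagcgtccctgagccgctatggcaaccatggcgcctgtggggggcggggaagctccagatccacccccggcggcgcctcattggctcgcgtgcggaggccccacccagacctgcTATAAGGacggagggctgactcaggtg
TATAAGG begins at -32 in Plin4 and at -27 in Plin5, counted from the first base after the window. The second RefSeq window of Plin5, which covers the bases just downstream of the one printed, holds no TATAAGG. The letters were noticed after the sequences were read, and 2.17% of all 32851 promoter windows of 300 bases hold it on either strand, some of them overlapping each other. RefSeq gave 13 such windows for the 10 members. The AGGTCA unit occurs in windows of Plin2, Plin5, Abhd5 and Lpin1 and in 16.3% of all windows, a search added after seeing the data. The full repeat AGGTCANAGGTCA occurs in none of the 13 and in 0.0396% of all. The palindrome of the glucocorticoid receptor, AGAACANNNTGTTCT, occurs in none of the 13 and in 0.00913% of all. The canonical E-box, CACGTG, occurs in windows of Plin2 and Lpin2 and in 7.15% of all. The forkhead motif, GTAAACA, occurs in a window of Lpin2 and in 3.65% of all. The full cAMP response element, TGACGTCA, occurs in none of the 13 and in 1.79% of all. A match describes letters in these windows and is not a binding site, and a missing match says only that the letters are not there.

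Lpin1 had the highest mean CPM of all members in tg livers at both durations, and varied widely among wt livers. At 2 h it stood at 201, 222, 66.2, 579.7 and 132 CPM in wt and at 512, 841, 692 and 816 CPM in tg. Of the 4 tg livers, 3 exceeded the highest wt liver, replicate 4. The log2 fold change of 1.58 ± 0.57 did not pass (adjusted p = 0.223). Of 19 fits that left out 1 library, 1 passed, without wt 2 h replicate 4 (2.21, adjusted p = 0.0450). That is the highest wt 2 h liver, and leaving it out by itself widens the difference. At 4 h the levels were 439.7, 171, 62.3, 199 and 332 CPM in wt and 1241, 977, 291, 963 and 998 CPM in tg. Of the 5 tg livers, 4 exceeded all wt livers, and replicate 3 lay within the wt range. The log2 fold change was 1.89 ± 0.55 (adjusted p = 0.0348). This call was lost in 7 of 19 fits that left out 1 library each, each lacking a 4 h liver (tg replicates 1, 2, 4 and 5, wt replicates 2, 3 and 4), where the adjusted p reached 0.0870 at most.

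Lpin1 (ENSMUSG00000020593) lies on the minus strand of chromosome 12 from 16535669 to 16610966. Its upstream window, shown for comparison with that of Plin5, holds the AGGTCA unit at -74 (capitals) and no TATAAGG.
Lpin1 chr12:16610967-16611216: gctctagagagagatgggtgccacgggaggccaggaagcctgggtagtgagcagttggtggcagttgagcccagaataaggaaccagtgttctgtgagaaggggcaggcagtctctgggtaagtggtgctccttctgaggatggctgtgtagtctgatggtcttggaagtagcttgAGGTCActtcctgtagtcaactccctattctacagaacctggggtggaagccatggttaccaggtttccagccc

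Lpin2, the lipin isoform long described as the main one of liver, moved less and varied less than Lpin1. Its level at 2 h was 267, 272, 219, 354 and 270.0 CPM in wt and 351, 479.5, 422 and 486 CPM in tg, where the lowest tg liver lay just under the highest wt liver. The log2 fold change was 0.65 ± 0.20 (adjusted p = 0.124). At 4 h the wt livers held 481, 244, 188, 294 and 319.7 CPM and the tg livers 561, 462, 412, 543 and 661 CPM. Here wt replicate 1 stood above 2 of the 5 tg livers. The rise of 0.79 ± 0.20 (adjusted p = 0.0121) passed in those 12 settings and 19 fits too. Lpin2 (ENSMUSG00000024052) lies on the plus strand of chromosome 17 from 71182560 to 71249817, far from the perilipin genes.

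The ratio of the lipins within single livers was higher in tg, and which lipin led in wt depended on the gene length used. Scaled to the longest transcript of each gene, the ratio of Lpin1 to Lpin2 was 0.808 ± 0.518 in wt 2 h, 1.65 ± 0.128 in tg 2 h, 0.740 ± 0.273 in wt 4 h and 1.68 ± 0.610 in tg 4 h (mean ± SD, n = 5, 4, 5 and 5). Lpin2 was the more abundant lipin in 4 of 5 wt livers at each duration, the exceptions being wt 2 h replicate 4 (1.66) and wt 4 h replicate 5 (1.05). Lpin1 was the more abundant in all tg livers but tg 4 h replicate 3 (0.714). With the length of all exons joined, the mean ratios were 1.01, 2.07, 0.927 and 2.10, and Lpin2 led in 3 of 5 wt livers at each duration, while the count of tg livers led by Lpin1 was 4 of 4 and 4 of 5 with either length.

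**Figure D4:**
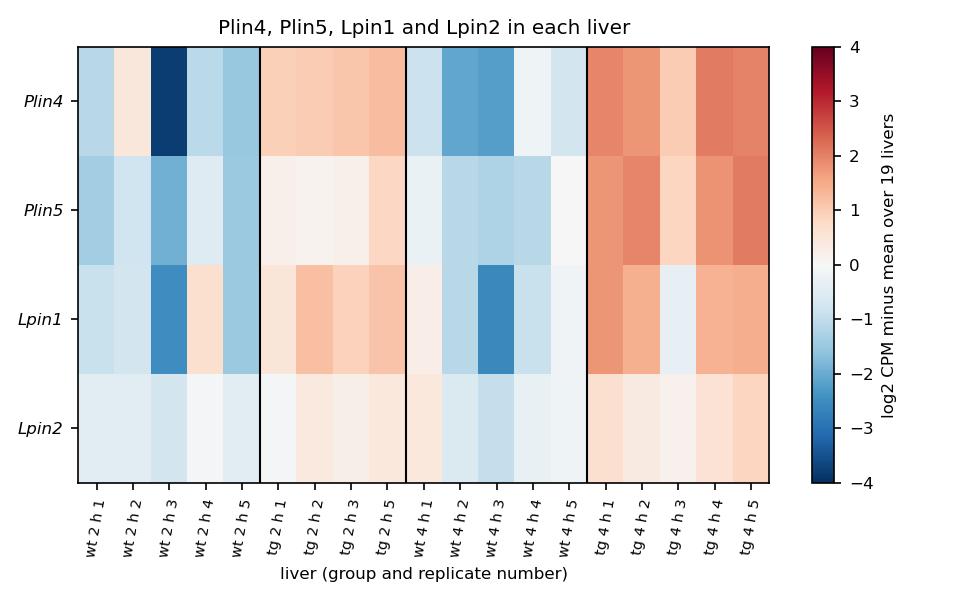
Log2 CPM of Plin4, Plin5, Lpin1 and Lpin2 in each of 19 livers, after subtracting each gene's mean over all livers (colour scale, red above and blue below the mean). The third replicates of wt 2 h, wt 4 h and tg 4 h are the lowest livers of their groups in all 4 genes.

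The liver-to-liver spread of these 4 genes was partly shared. Replicate 3 was the lowest liver of wt 2 h, of wt 4 h and of tg 4 h for each of Plin4, Plin5, Lpin1 and Lpin2. In tg 2 h, replicate 1 was the lowest for Plin4, Lpin1 and Lpin2, while replicate 2 was the lowest for Plin5 and the highest for Lpin1. Among wt 2 h livers replicate 4 was the highest for Plin5, Lpin1 and Lpin2, and replicate 2 for Plin4. Replicate 1 was the highest wt 4 h liver for both lipins, replicate 4 for Plin4 and replicate 5 for Plin5. Leaving out tg 4 h replicate 3 and wt 4 h replicate 1 together, the pair nearest to the other genotype for the lipins, gave 6 calls at 4 h, the 5 above and Plin3, which was lower in tg. This choice of libraries was made after seeing the data and by itself widens the difference.

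Among the genes of ATGL and its partners, Pnpla2 alone passed, at 4 h. Pnpla2 (ENSMUSG00000025509, plus strand of chromosome 7, 141455198 to 141460743) held 104, 108, 107, 132 and 96.5 CPM in wt and 116, 113, 119 and 98.9 CPM in tg at 2 h, with a log2 fold change of 0.03 ± 0.12 (adjusted p = 0.981). At 4 h it held 107, 108, 108, 118 and 132 CPM in wt and 181, 124, 119, 158 and 160.5 CPM in tg. The ranges overlapped, with 3 of 5 tg livers above every wt liver. The log2 fold change was 0.37 ± 0.11 (adjusted p = 0.0355), a ratio of means of 1.29. Leaving out a single 4 h liver ended the call for tg replicates 1, 4 and 5 and for wt replicates 1, 2, 3 and 4 (highest adjusted p 0.110), and also with total counts in place of TMM, with ranges of the number in the sample titles as a block and with a fit to the 4 h groups alone (adjusted p up to 0.0902). Within tg, the log2 difference of 4 h against 2 h was 0.41 ± 0.12 (adjusted p = 0.113). The lowest tg liver at 4 h and the highest at 2 h both rounded to 119 CPM.

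G0s2, the inhibitor of ATGL, varied widely within every group. It held 47.0, 43.0, 23.1, 57.1 and 17.1 CPM in wt and 85.0, 20.0, 60.3 and 43.5 CPM in tg at 2 h, and 39.3, 39.9, 30.6, 56.8 and 19.1 CPM in wt and 28.0, 87.5, 35.7, 77.9 and 72.3 CPM in tg at 4 h. Both durations mixed high and low tg livers, and 3 of 5 tg livers at 4 h exceeded all wt livers. Log2 fold changes were 0.48 ± 0.45 at 2 h and 0.70 ± 0.42 at 4 h (adjusted p = 0.806 and 0.332). Differences of the size seen were not detectable with this spread. G0s2 (ENSMUSG00000009633, minus strand of chromosome 1, 193272161 to 193273217) lies inside the span of Lamb3 on the opposite strand and shares no exon base with it.

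Abhd5, the activator of ATGL, varied little. Its level ranged from 22.4 to 25.8 CPM in wt 2 h, from 21.1 to 27.8 CPM in tg 2 h, from 24.3 to 26.6 CPM in wt 4 h and from 22.7 to 27.8 CPM in tg 4 h. The log2 fold changes were -0.003 ± 0.083 at 2 h and -0.05 ± 0.08 at 4 h (adjusted p = 0.996 and 0.746). Abhd5 (ENSMUSG00000032540, plus strand of chromosome 9, 122351608 to 122381524) shares 950 exon bases with an antisense gene that has no row of counts, A730085K08Rik, and no source used here says whether strand was used in counting.
In CPM per kb of the longest transcript, the ratio of Pnpla2 to Abhd5 was 5.46 ± 0.427 in wt 2 h, 5.67 ± 1.03 in tg 2 h, 5.52 ± 0.512 in wt 4 h and 7.37 ± 1.09 in tg 4 h. The ratio of Pnpla2 to G0s2 was 1.19 ± 0.639 in wt 4 h and 1.03 ± 0.667 in tg 4 h, with ranges that overlapped widely.

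The remaining coat proteins gave no call. Plin2, the main droplet coat of hepatocytes (ENSMUSG00000028494, minus strand of chromosome 4, 86648386 to 86670060), held 286, 252, 203, 278 and 329 CPM in wt and 369, 119, 252 and 299 CPM in tg at 2 h. At 4 h it held 244, 304, 371, 445 and 302 CPM in wt and 289.6, 206, 236, 253 and 415 CPM in tg. The groups overlapped at both durations, with log2 fold changes of -0.06 ± 0.26 and -0.25 ± 0.24 (adjusted p = 0.981 and 0.570). Plin3, a perilipin found in many tissues and partly cytosolic, ranged from 35.0 to 45.3 CPM in wt and 32.3 to 42.4 CPM in tg at 2 h, and from 30.2 to 45.6 CPM in wt and 30.0 to 37.9 CPM in tg at 4 h. Its log2 fold changes were -0.05 ± 0.11 and -0.26 ± 0.11 (adjusted p = 0.944 and 0.123). In 1 of 19 fits that left out 1 library Plin3 passed at 4 h, with tg lower, without wt 4 h replicate 1 (-0.34, adjusted p = 0.0227). That liver held the lowest wt 4 h value of Plin3, and leaving it out by itself widens the difference.

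Cideb, which helps to load lipid onto very-low-density lipoprotein in hepatocytes, ranged from 176 to 291 CPM in wt and 175 to 232 CPM in tg at 2 h. At 4 h it ranged from 185 to 267 CPM in wt, while the 5 tg livers lay between 216 and 224 CPM. Log2 fold changes were -0.06 ± 0.13 and -0.06 ± 0.12 (adjusted p = 0.943 and 0.788). The gene (ENSMUSG00000022219, minus strand of chromosome 14, 55754050 to 55758458) shares 1136 exon bases, 76.3% of its own, with Nop9 on the opposite strand. Nop9 held 17.9 ± 0.371 CPM in wt and 17.5 ± 0.781 CPM in tg at 2 h, and reads of the pair cannot be told apart if strand was not used in counting.

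The perilipin mix of the liver RNA differed accordingly. As a share of the 4 perilipins' summed CPM per kb of longest transcript, Plin5 made up 9.60 ± 3.30% in wt 2 h, 24.8 ± 7.16% in tg 2 h, 11.5 ± 5.74% in wt 4 h and 42.5 ± 7.53% in tg 4 h (mean ± SD). Plin2 made up 83.3 ± 3.30%, 67.0 ± 10.4%, 83.0 ± 5.77% and 51.8 ± 7.61%. At 4 h no tg liver had a Plin5 share under 32.5% and no wt liver one over 17.8%, while at 2 h the lowest tg share was 16.8% and the highest wt share 13.7%. In 1 of 5 tg 4 h livers, replicate 2, the level per kb of longest transcript of Plin5 exceeded that of Plin2, with a Plin2 to Plin5 ratio of 0.781, against 4.30 or more in every wt 4 h liver. These shares describe the same counts as the tests above and carry no test of their own. With the length of all exons joined in place of the longest transcript, the Plin5 share was 14.9%, 34.5%, 17.6% and 54.5%, and the Plin2 share 73.8%, 53.9%, 73.5% and 37.9%. By that length Plin5 exceeded Plin2 in 4 of 5 tg 4 h livers and 1 of 4 tg 2 h livers, and in none of the wt livers.

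**Figure D5:**
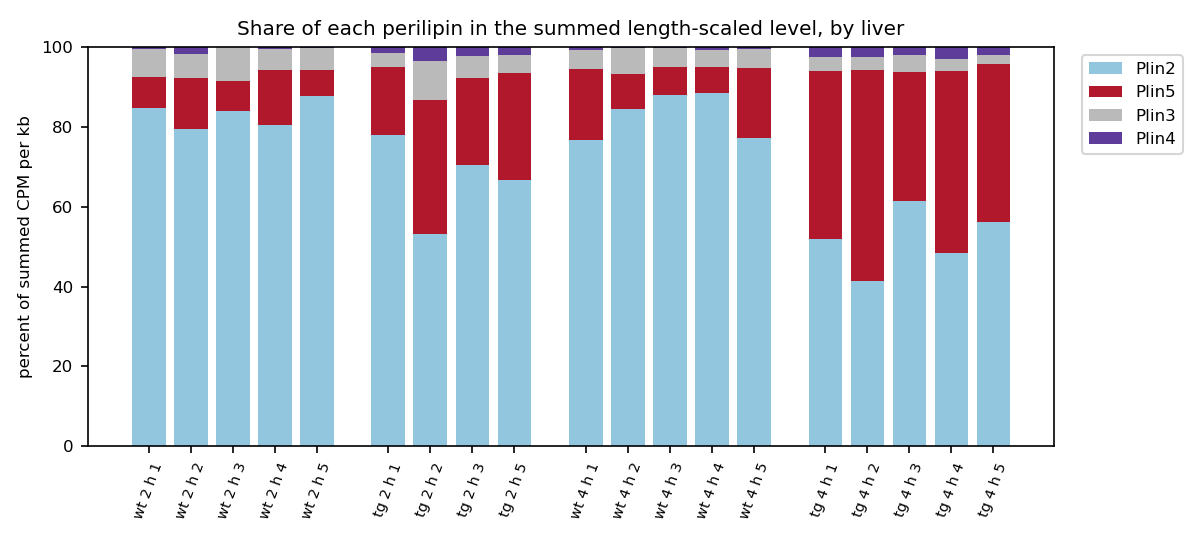
Share of each perilipin in the summed CPM per kb (vertical axis, percent) for each of 19 livers, stacked from Plin2 at the bottom. Plin5 takes 32.5% to 52.9% in tg 4 h livers and 6.33% to 17.8% in wt 4 h livers.

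The order of levels per kb of longest transcript also shifted. Cideb had the highest mean in every group with either gene length. Plin4 had the lowest in every group by longest transcript, whereas with all exons joined Abhd5 lay under it in tg, at 4.04 against 4.21 CPM per kb at 2 h and 4.07 against 6.97 at 4 h. Lpin1 moved from rank 5 in wt 4 h (43.2 ± 26.3 CPM per kb) to rank 2 in tg 4 h (160.2 ± 63.7), and Plin5 from rank 7 (23.1 ± 9.56) to rank 4 (122 ± 33.7). With all exons joined, Plin5 moved from rank 7 to rank 2 (116 ± 32.0 in tg 4 h) and Lpin1 from rank 6 to rank 3 (92.5 ± 36.8). By longest transcript, neighbours in the tg 4 h order overlapped in range from Cideb down to Pnpla2 and from Plin3 down to Plin4. In wt 4 h they did so from Lpin2 down to Plin5, which takes in the starting ranks of Lpin1 and Plin5. The order of such neighbours is not resolved. Genes further apart can be clear of each other, as Cideb (178 to 185 CPM per kb) was of Plin5 (66.2 to 155) in tg 4 h. Pnpla2 stood clear of Plin3, at 56.7 ± 10.1 against 8.94 ± 0.849 CPM per kb. By the same length in wt 4 h, Plin2 (177 ± 40.7) stood clear of Lpin2 (54.1 ± 19.6).

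No member passed the test of a different tg effect at 4 h and 2 h, and no gene of all 12493 did in the edgeR fit reported, while 723 had an unadjusted p under 0.05. DESeq2 called 6 genes. Without wt 4 h replicate 1 edgeR called 3, and without that liver and tg 4 h replicate 3 it called 1. Among members, Pnpla2 alone had an unadjusted p under 0.05 for this difference in the edgeR test across all genes (0.35 ± 0.16, adjusted p = 0.859). Between durations within tg, no member passed, against 0.913% of all genes, and Plin5 and Pnpla2 had unadjusted p under 0.05. Within wt no member and no gene passed in the edgeR fit reported, where 747 genes and no member had an unadjusted p under 0.05. DESeq2 and limma-voom with sample weights each called 1 gene and no member. So did edgeR without wt 4 h replicate 1, left out alone or together with tg 4 h replicate 3.

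The authors' deposited tables, which compare tg with wt at each duration separately, list Plin5 at 2 h with a log2 fold change of 1.51 (adjusted p = 8.29e-07). In the authors' deposited table for 2 h, Lpin2 has 0.65 (adjusted p = 0.000622) and Plin4 1.95 (adjusted p = 0.0755). Lpin2 at 2 h is the 1 member below 0.05 there and above it in the fit reported here (adjusted p = 0.124). For 4 h, the authors' deposited table puts Plin5, Plin4, Lpin2, Lpin1 and Pnpla2 below 0.05, with Plin5 at 2.41 (adjusted p = 3.03e-16) and Pnpla2 at 0.38 (adjusted p = 0.0321).

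Other genes of fat handling were counted in lists by function. For comparison, 2.16% of all genes tested passed at 2 h, 11.4% at 4 h and 14.2% on average over both durations. Of 20 other droplet proteins tested, none passed at 2 h or 4 h, with median log2 fold changes of 0.04 and -0.01, but 2 rose on average over both durations. Of 26 other lipases, 1 rose and 1 fell at each duration. The riser was Ces1b, a carboxylesterase of liver, from 59.6 ± 11.8 to 172 ± 40.3 CPM at 2 h and from 56.6 ± 14.8 to 182 ± 21.2 CPM at 4 h, with log2 fold changes of 1.53 ± 0.19 and 1.69 ± 0.19 (adjusted p = 0.000215 and 2.19e-05). Ces1 genes lie in a cluster of similar copies, so reads could be split among them. Lipe, hormone-sensitive lipase, fell by 0.64 ± 0.16 at 2 h and by 0.69 ± 0.15 at 4 h on the log2 scale (adjusted p = 0.0310 and 0.00420). The list medians were 0.02 and -0.02, and 1 lipase rose and 1 fell on average over both durations.

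Of 23 genes of triglyceride synthesis, 4 rose and 1 fell on average over both durations. None passed at 2 h, and 2 rose and 1 fell at 4 h, with list medians of -0.01 at both durations. Gpat4, a glycerol-phosphate acyltransferase of the first step, rose by 1.19 ± 0.17 (adjusted p = 0.000138), from 163 ± 38.5 to 370.4 ± 82.0 CPM. Gpat3, a related enzyme, rose by 1.63 ± 0.36 (adjusted p = 0.00588) from 2.60 ± 1.21 to 8.01 ± 3.04 CPM. Mogat2, a monoacylglycerol acyltransferase, fell by 2.89 ± 0.64 (adjusted p = 0.00571) at a very low level, 0.614 ± 0.249 CPM in wt and 0.0754 ± 0.050 CPM in tg.

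Of 11 genes of lipoprotein export and lipase control, 1 rose and 1 fell on average over both durations. At 2 h 1 rose and 1 fell, and at 4 h 1 rose, with medians of 0.12 and 0.13. Angptl4, a secreted inhibitor of lipoprotein lipase, rose by 0.94 ± 0.22 and 0.95 ± 0.21 (adjusted p = 0.0297 and 0.00661), reaching 214 ± 33.7 CPM in tg 4 h. Angptl8, whose product also acts on lipoprotein lipase, fell by 1.15 ± 0.27 at 2 h (adjusted p = 0.0256). None of 14 genes of fatty acid uptake and activation passed at either duration, with medians of 0.01 and 0.02, and 1 fell on average over both. Of 20 genes of fatty acid oxidation and ketogenesis, none passed at 2 h and 2 rose at 4 h, Pdk4 (1.39 ± 0.37, adjusted p = 0.0193) and Acot1 (1.08 ± 0.30, adjusted p = 0.0286). That list had medians of 0.15 and 0.09, and 3 of its genes rose on average over both durations. Pdk4 shuts pyruvate out of oxidation, and Acot1 is a cytosolic thioesterase with close copies.

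Of 22 transcription factors and coactivators of lipid genes, 4 rose and 4 fell on average over both durations. At 2 h 3 rose and 2 fell, and at 4 h 4 rose and 2 fell, with medians of 0.0008 and 0.05. Ppargc1a, a coactivator of PPAR alpha and of other factors, rose by 1.69 ± 0.23 and 1.63 ± 0.22 (adjusted p = 0.000377 and 0.000122). Foxo1, a factor restrained by insulin, rose by 1.06 ± 0.12 and 0.99 ± 0.11 (adjusted p = 5.76e-05 and 2.19e-05). Cebpa, a factor of hepatocyte differentiation, fell by 0.59 ± 0.11 and 0.52 ± 0.10 (adjusted p = 0.00584 and 0.00308).

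The genes whose profile over the 19 livers lay nearest to each strongly changed member were sought among the 11141 genes averaging 1 CPM or more, by the mean absolute difference of centred log2 CPM. For Plin5 these were Ccdc151 (0.323), St3gal5 (0.356) and Map3k6 (0.357), where the median gene differed by 1.05. For Plin4 they were Ppp1r3b (0.503), Trp53inp1 (0.511) and Igfbp1 (0.532), with a median of 1.42. For Lpin1 they were Tmc7 (0.407), Ppp1r3b (0.439) and Fkbp5 (0.439), with a median of 1.13. Plin5 was the 7th nearest gene to Plin4, and Lpin1 the 10th, both nearer than most genes. Seen from Plin5, Lpin1 ranked 20th and Plin4 58th. These ranks describe shared variation over the same livers, of which the difference between tg and wt is a part.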

How the data were processed

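Livers of 19 mice were profiled from poly-A selected, stranded libraries, per the labels' protocols. Counts as deposited are whole numbers for 14576 genes, of which 257 without values at 4 h were left out. Salmon 1.4.0, STAR, DESeq2 1.30.0 and build GRCm38.p6 appear in the submitters' processing notes, which give them no roles, and no source used here describes the counting. The authors also deposited a table per duration with mean normalised counts (a signal), log2 fold changes, a test score and p-values.

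Counts were fitted with edgeR 4.0.16 in R 4.3.3, with a minimum count of 10 and minimum total of 15, TMM scaling, 1 mean per group over all 19 libraries (15 residual degrees of freedom) and robust quasi-likelihood tests, called at an adjusted p under 0.05 over all genes. CPM used TMM-scaled totals. Every member had at least 27 reads in every library. Precision is limited by the spread between mice, and p-values measure the spread between the animals named in the labels. Levels were compared between genes per kb of longest GENCODE M21 transcript. Members and lists were chosen with earlier results of these data known. Named genes were all members, up to 3 called genes of smallest p per list and duration, and the 3 genes nearest in profile to each member changed at least 2-fold. Each list holds genes named for their function. The fit was tested on simulated data. Across 171 pairs of libraries, chi-square divided by its degrees of freedom was never under 20.5, so no pair agreed within sampling noise. Alternatives were other scalings and filters, DESeq2 1.42.0, limma-voom 3.58.1 with and without sample weights, blocks for numbers in the sample titles, fits to the groups compared, and fits without each library.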

Additional observations from a re-analysis of the deposited data

Results flagged for a closer look

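In 40 groups of 4 or 5 livers (10 members in 4 groups), the gap between the most extreme liver and its nearest neighbour was compared with the range of the group, and 2 groups exceeded Dixon's 95% limit, where chance flags about 1 in 20. Plin5 in tg 2 h replicate 5 was 126.758 CPM, and the remaining 3 tg livers lay between 78.8 and 83.8 CPM. Abhd5 in tg 4 h replicate 1 was 27.8 CPM, and the other 4 lay between 22.7 and 23.7 CPM. The cause was not tested.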

How the results depend on the processing

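Of the members higher at 4 h, Plin5, Plin4 and Lpin2 passed under every setting tried, Lpin1 under all but 7 fits that left out a library, and Pnpla2 with the exceptions named above. At 4 h 3 to 5 members passed when a library was left out, the lowest count when that was 1 of the 4 h livers tg 1, 4 and 5 and wt 2, 3 and 4, and 4 to 5 did on average over durations. At 2 h, where 1 member passed, 3 did with DESeq2 and with limma-voom with sample weights, 2 with limma-voom, with the groups compared alone and without tg 4 h replicate 3 and wt 4 h replicate 1, and 0 to 2 when a library was left out, none when that was replicate 5 of either 2 h group. For 4 h against 2 h within tg, where none passed, 1 did (Plin5) with RLE or upper-quartile scaling, the filter of mean 1 CPM, limma-voom, the number block and the groups compared alone, 2 (Plin5 and Pnpla2) with DESeq2, sample weights and both libraries left out, and 0 to 2 when a library was left out. Deviations of same-numbered mice correlated from -0.317 to 0.393, over 0.1 in 1 of 4 and 2 of 5 pairs of tg and wt at 2 h and 4 h and in 2 of 4 and 3 of 5 pairs of durations in tg and wt. In the same order, 1 of 8, 4 of 10, 4 of 8 and 4 of 10 mice correlated best with their own number, among 4 or 5 candidates each. The replicate number was not used as a pairing in the fit reported, and whether same-numbered mice belong together was not tested. With that number as a block 3 members passed at 2 h, 5 at 4 h and 1 within tg. Lpin2 at 2 h passed with DESeq2, sample weights, the groups compared alone and both libraries left out, and without wt 4 h replicate 1, which enters through the shared spread (adjusted p from 0.0255 to 0.310 over all settings). Plin4 at 2 h passed with DESeq2, limma-voom with and without sample weights and the replicate block, and Lpin1 at 2 h with that block. Plin3 at 4 h passed, with tg lower, with no scaling, sample weights and both libraries left out. Over all genes, DESeq2 called 425 at 2 h against 270, 6 for the difference of the effects against 0 and 288 within tg against 114. Sample weights gave 2296 at 4 h against 1423 and 209 within tg, no scaling 195 within tg and both libraries left out 187. Leaving out a library gave 151 to 326 at 2 h, 895 to 1887 at 4 h and 20 to 164 within tg.

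No called member changed sign, but uncalled values near 0 did. For tg against wt at 2 h these were Plin2 0.15 with the number block, Cideb 0.016 with limma-voom with sample weights, Pnpla2 -0.036 with no scaling and -0.0028 with limma-voom with sample weights, Abhd5 0.018 with limma-voom with sample weights and 0.037 with the number block. For tg against wt at 4 h these were Cideb 0.012 with the number block. For tg against wt on average these were Cideb 0.0056 with the number block. For the difference of the effects these were Cideb 0.0058 with RLE scaling, 0.0016 with the filter of mean 1 CPM, 0.0059 with DESeq2 and 0.013 with the number block, Lpin1 -0.24 with the replicate block. For 4 h against 2 h in tg these were Abhd5 -0.0083 with upper-quartile scaling, -0.069 with no scaling and -0.0052 with limma-voom with sample weights, Lpin1 -0.12 with the replicate block. For 4 h against 2 h in wt these were Plin3 0.058 with limma-voom with sample weights and 0.060 with both libraries left out, Plin4 0.24 with limma-voom and 0.30 with the number block, G0s2 0.035 with limma-voom, 0.014 with the replicate block and 0.055 with the number block, Abhd5 -5.9e-05 with no scaling, Lpin1 -0.026 with no scaling, -0.00098 with the filter of mean 1 CPM, -0.22 with limma-voom with sample weights, -0.0085 with the groups compared alone and -0.33 with both libraries left out, Lpin2 -0.042 with limma-voom with sample weights and -0.081 with both libraries left out. With 1 library left out the ranges that crossed 0 were for tg against wt at 2 h Plin2 -0.27 to 0.18, Plin3 -0.11 to 0.016, Cideb -0.13 to 0.074, Pnpla2 -0.018 to 0.10, Abhd5 -0.078 to 0.055; for tg against wt on average Cideb -0.098 to 0.0051, Abhd5 -0.064 to 0.0031; for the difference of the effects Plin2 -0.44 to 0.023, Cideb -0.14 to 0.067, G0s2 -0.049 to 0.56, Abhd5 -0.10 to 0.029, Lpin1 -0.31 to 0.65; for 4 h against 2 h in tg Plin2 -0.13 to 0.33, G0s2 -0.062 to 0.55, Abhd5 -0.047 to 0.086; for 4 h against 2 h in wt Plin3 -0.081 to 0.060, Plin4 -0.44 to 0.56, G0s2 -0.22 to 0.19, Lpin1 -0.33 to 0.63, Lpin2 -0.081 to 0.28. The cause was not tested. The lowest count of a member in a library was 27 reads, for Plin4 in wt 2 h replicate 3.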
